A study of Arabidopsis thaliana with 6 samples.

Results

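The splicing machinery of Arabidopsis seedlings was followed through 32 loci that encode splicing factors, out of 28141 features in the deposited tables. The loci were given by a list of locus codes, which was chosen with earlier results of these data known. It holds 18 SR proteins, SR45 and SR45A, the glycine-rich proteins GRP7 and GRP8, and 3 polypyrimidine tract-binding proteins. It also holds 4 U2AF subunits, U1-70K, and the 2 subunits of the nuclear cap-binding complex. All 32 had values, and together they had 73 listed isoforms. Most of these factors are encoded by genes that are alternatively spliced themselves, so that both the level of each locus and the share of each isoform within it were compared.

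RNA came from whole seedlings, 5 days old, of the accession Col-0, grown on plates at 23 °C in days of 16 h light and 8 h dark. One group was wild-type and the other was fip37-4 LEC1:FIP37, with 3 libraries each; the latter are called the mutant libraries for short. FIP37, the plant relative of mammalian WTAP, belongs to the enzyme complex that places N6-methyladenosine in mRNA. The fip37-4 allele disrupts this gene, and the transgene supplies FIP37 from the promoter of LEC1, which is active mainly in embryos, so that the seedlings carry both a disrupted allele and a rescue construct. The labels do not say whether the libraries came from separate cultures, so p-values reflect the spread among these libraries alone, and that spread may be technical.

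An intron is removed after its ends have been recognised. The U1 particle binds the donor (5′ splice site), and U2AF binds the acceptor (3′ splice site), its large subunit on the pyrimidine-rich stretch and its small subunit on the AG. SR proteins bind exons through RNA recognition motifs and recruit these core factors through domains rich in arginine and serine. Many genes of plant SR proteins, of GRP7 and GRP8 and of polypyrimidine tract-binding proteins make isoforms with early stop codons, through which the level of the full protein can be limited.

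Values are FPKM, a measure of sequenced fragments relative to the length of the transcript and the total of mapped fragments, summed over the isoforms of a locus. The summed FPKM of a library lay between 1160321 and 1350343, and the number of sequenced fragments was not known. Low values moved in single-fragment steps of 0.0188 to 0.0265 FPKM for a transcript of 1500 nt. By these steps, 31 of the members rested on at least 178 fragments in every library, and SCL28 rested on 22 to 28. FIP37 itself, which checks the labels, was at 8.99, 9.03 and 8.96 FPKM in wild-type and at 80.6, 64.97 and 67.5 in fip37-4 LEC1:FIP37, where transcripts of the transgene and of the endogenous gene are not separated. These values tell the groups apart but show no loss of FIP37 transcript, and loss of its function was not tested. Chloroplast and mitochondrial genes made up 50.7 to 51.2% of a wild-type library's summed FPKM and 56.9 to 60.1% of a fip37-4 LEC1:FIP37 one. All 3 shoot markers were at high levels in every library and rose in fip37-4 LEC1:FIP37 (RBCS1A from 6787 to 12208 FPKM in the mean), the root markers CASP1 fell and EXPA7 rose while PYK10 was not called, COBL9 was under the filter, and the 3 seed markers CRA1, OLEO1 and EM6 rose from means of 0.583 to 1.52 FPKM to means of 2.86 to 5.15. The part of such shifts in the results was not tested, and in whole seedlings fewer cells of a type and less RNA per cell cannot be told apart.

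Most of the splicing factor loci had a lower level in fip37-4 LEC1:FIP37, by small amounts. Of the 32 members, 20 fell, 2 rose and 10 were not called at an adjusted p under 0.05 (limma on log2(FPKM + 0.5), Benjamini-Hochberg over 19383 loci). Over all tested loci, 30.9% fell and 27.6% rose, or 58.6% in all, against 62.5% and 6.25% of the members. The median log2 fold change was -0.19 over the members and -0.002 over all loci. No called member changed by 2-fold or more, and the median absolute log2 fold change of the called members was 0.29. The libraries of both groups did not overlap for 24 members, or 75%, of which 21 were lower in fip37-4 LEC1:FIP37; over all loci the groups did not overlap for 65.9%, and 34.1% were lower without overlap. The count of members that fell depended on the scaling of the libraries: it was 11 after quantile normalization, where 27.7% of all loci fell and 27.4% rose, and 10 after each library was rescaled without the organelle genomes, where 21.4% of all loci fell and 31.3% rose. With a trend of fold change with transcript length removed, 16 members fell and 4 rose, against 29.1% and 27.2% of all loci.

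**Figure D1:**
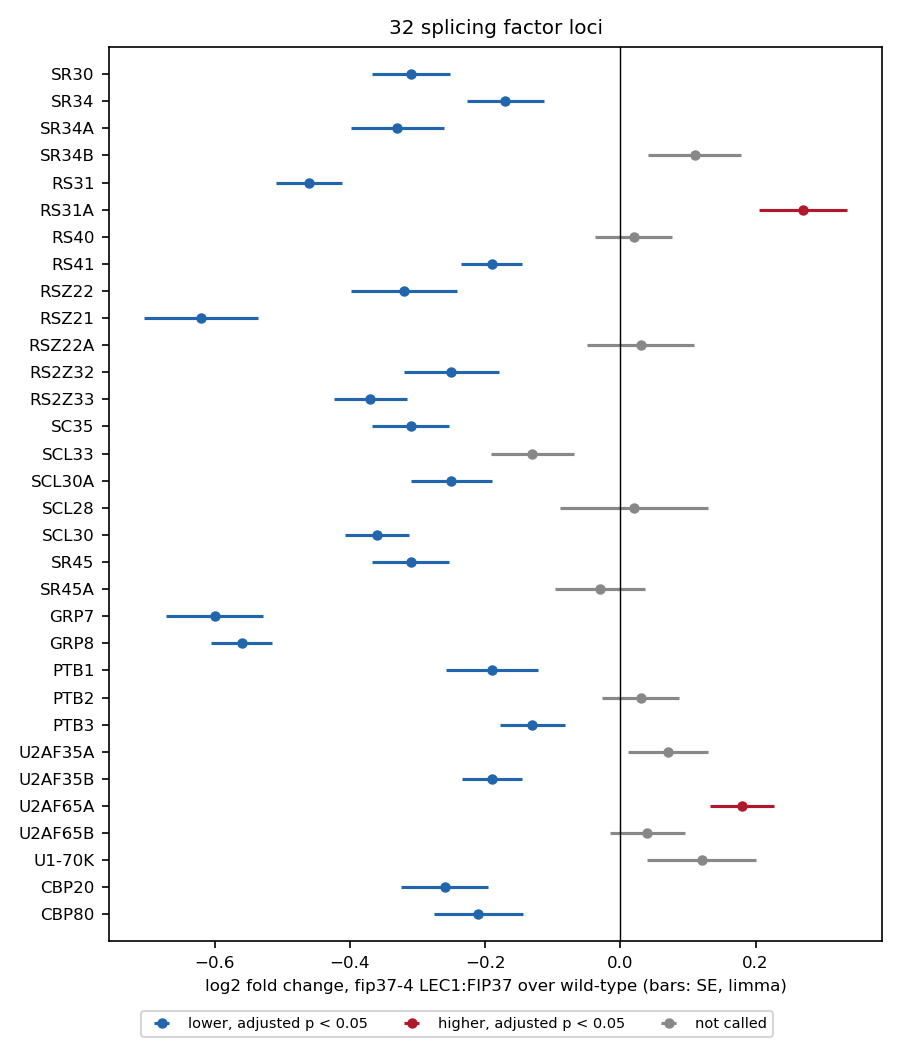
Log2 fold change of each of the 32 splicing factor loci, fip37-4 LEC1:FIP37 over wild-type (horizontal axis), with bars for the standard error of the limma fit and 3 libraries per group. The 20 loci in blue fell and the 2 in red (RS31A and U2AF65A) rose at an adjusted p under 0.05; the other 10 in grey were not called.

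**Figure D2:**
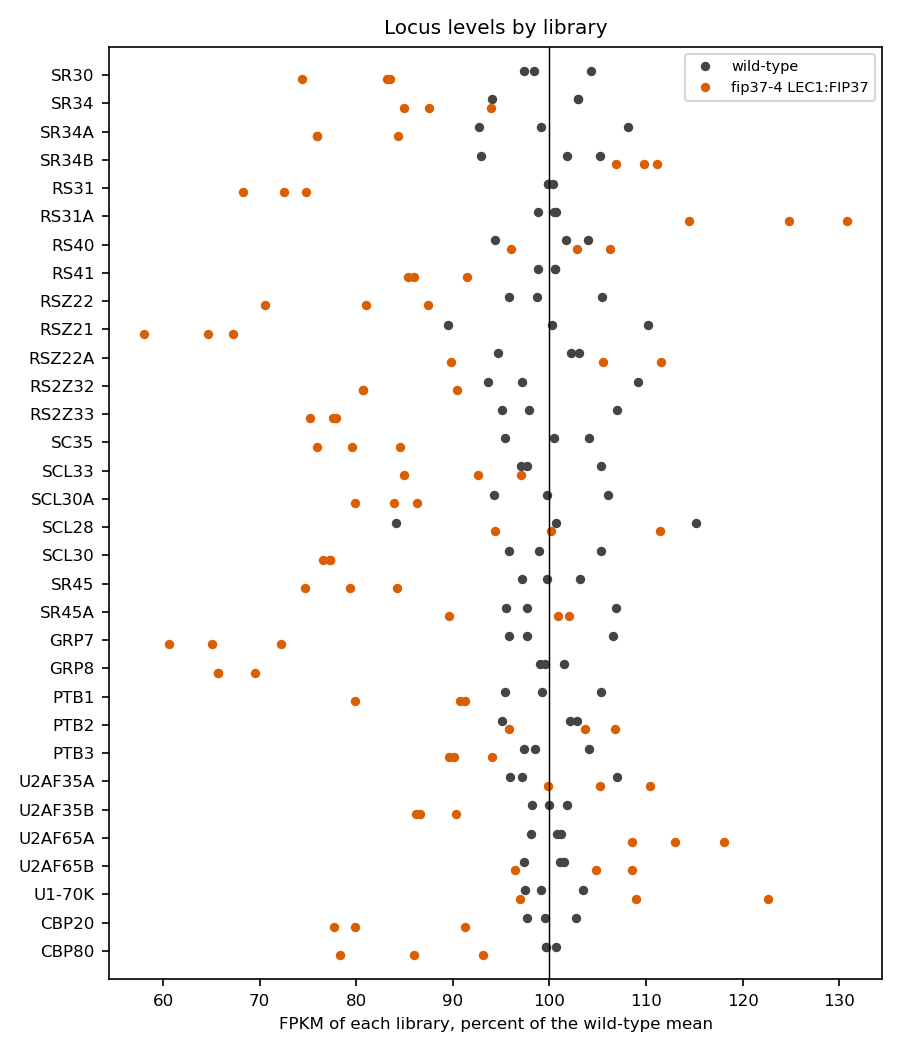
FPKM of each library as a percent of the wild-type mean of the same locus, for the 32 splicing factor loci; each point is 1 library. The points of both groups are separate for 24 loci, and the mutant points of RSZ21, GRP7, GRP8 and RS31 lie well to the left of wild-type.

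The acceptor-binding U2AF subunits did not move together. U2AF65A (AT4G36690), the large subunit that contacts the pyrimidine stretch, was at 24.04, 24.8 and 24.7 FPKM in wild-type and at 26.6, 29.0 and 27.7 in fip37-4 LEC1:FIP37. Every mutant library was above every wild-type library, and the locus rose (log2 fold change 0.18, SE 0.047, limma adjusted p = 0.0117). Its paralogue U2AF65B (AT1G60900) was at 10.9, 10.5 and 11.0 FPKM against 11.7, 11.3 and 10.4, with overlapping groups (log2 0.04, limma adjusted p = 0.535). Of the small subunits, which read the AG, U2AF35B (AT5G42820) fell from 21.7, 21.3 and 22.1 FPKM to 19.6, 18.7 and 18.8 (log2 -0.19, SE 0.044, limma adjusted p = 0.00646). U2AF35A (AT1G27650) stood at 26.0, 26.3 and 29.0 FPKM against 27.0, 28.5 and 29.9, with overlap and no call (log2 0.07, limma adjusted p = 0.319). The fall of U2AF35B was not called after quantile normalization (log2 -0.02, adjusted p = 0.734) or the rescaling without organelle genomes (log2 -0.09, adjusted p = 0.404), and a gene on the opposite strand, AT5G42825, overlaps it over 981 nt and stood at means of 23.0 and 29.3 FPKM. U2AF35A was called higher after quantile normalization (log2 0.24, adjusted p = 0.00498) and after a trend with transcript length was removed (log2 0.17, adjusted p = 0.0349).

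Within U2AF65A, the transcript with the longer intron had a lower share in fip37-4 LEC1:FIP37 and the one with the shorter intron a higher share. The first of these was the largest difference in share among the members' isoforms that passed the filter on low values. Neither was called in the test of the ratio over all isoforms (limma adjusted p = 0.137 and 0.148). Over all isoforms, 12.6% differed by at least 5 percentage points without overlap. Reference models carry the same isoform codes as the files, though their ends may differ from those of the annotation the authors used. In these models, isoforms 1 and 3 use the same donor near the end of the coding sequence and different acceptors. Isoform 1 removes an intron of 273 nt (chr4:17294431-17294703, minus strand, TAIR10.1) and encodes 573 residues, isoform 3 removes an intron of 100 nt (chr4:17294604-17294703), keeps 173 more bases as exon and encodes 565 residues, and isoform 2 keeps the whole intron and encodes 542. The sites are shown because the models of isoforms 1 and 3 differ in these 2 acceptors, besides their transcript ends. Use of the acceptors was not measured directly. Each run holds 24 intron bases and 6 exon bases of the strand of the gene, with the AG or GT at the intron's end in capitals.
Acceptor of isoform 1 (chr4:17294425-17294454): tgttctttaactcttaaaatgcAGgtgctt
Acceptor of isoform 3 (chr4:17294598-17294627): tttcttggttgtgctgttttacAGcctttt
Shared donor (chr4:17294680-17294709): agtttgGTaagagacctcttaattgcgcaa
The 20 bases before the AG hold 13 pyrimidines at the acceptor of isoform 1 and 14 at that of isoform 3. Across 132375 annotated introns of at least 60 nt that end in AG, the median was 13, 62.9% held at most 13 and 77.6% held at most 14, so neither acceptor stands out by this count.

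Isoform 1 of U2AF65A took 44.2, 40.7 and 45.05% of the locus FPKM in wild-type and 25.02, 31.2 and 27.8% in fip37-4 LEC1:FIP37. Isoform 3 took 33.5, 32.2 and 29.8% in wild-type and 47.7, 45.5 and 44.0% in fip37-4 LEC1:FIP37. For both isoforms the groups were separate, and isoform 1 led in every wild-type library whereas isoform 3 led in every mutant library. The share of isoform 1 was 43.3% ± 2.3 (SD, n = 3) in wild-type and 28.0% ± 3.1 (SD, n = 3) in the mutant, and that of isoform 3 was 31.9% ± 1.9 (SD, n = 3) and 45.7% ± 1.9 (SD, n = 3). The intron-retaining isoform 2 kept 20.8 to 24.8% and 19.7 to 25.7%, and isoform 4, which uses another splice pattern upstream, 1.5 to 2.3% and 1.7 to 3.6%, both with overlap. The log2 ratio of isoform 1 to the rest of the locus differed by -0.94 (SE 0.22), which did not pass the adjustment over 6542 isoforms (limma adjusted p = 0.137), and that of isoform 3 by 0.81 (SE 0.21, limma adjusted p = 0.148). With limma's diffSplice, which compares each transcript with the others of its locus, both were called (adjusted p = 0.0077 for isoform 1 and 0.036 for isoform 3).

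The levels of the same transcripts were called when each was tested on its own. Of 61 member transcripts tested so, 3 rose and 20 fell, isoforms 3 and 1 of U2AF65A among them. Over all transcripts, 21.2% rose and 25.1% fell. Isoform 3 rose from 8.06, 7.99 and 7.36 FPKM to 12.7, 13.2 and 12.2 (log2 0.67, SE 0.057, limma adjusted p = 0.000158), and isoform 1 fell from 10.6, 10.1 and 11.1 FPKM to 6.66, 9.03 and 7.70 (log2 -0.43, SE 0.1, limma adjusted p = 0.0135). Isoform 2 was at 4.99, 6.16 and 5.77 FPKM against 6.80, 5.71 and 7.12 and was not called (log2 0.20, limma adjusted p = 0.167). The rise of the locus therefore joined a rise of isoform 3 with a fall of isoform 1. By the single-fragment steps, isoform 1 rested on 394 to 702 fragments and isoform 3 on 490 to 1031, and since much of each transcript is shared, these are the shares assigned by the authors' quantification and not counts of reads over the junction.

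**Figure D3:**
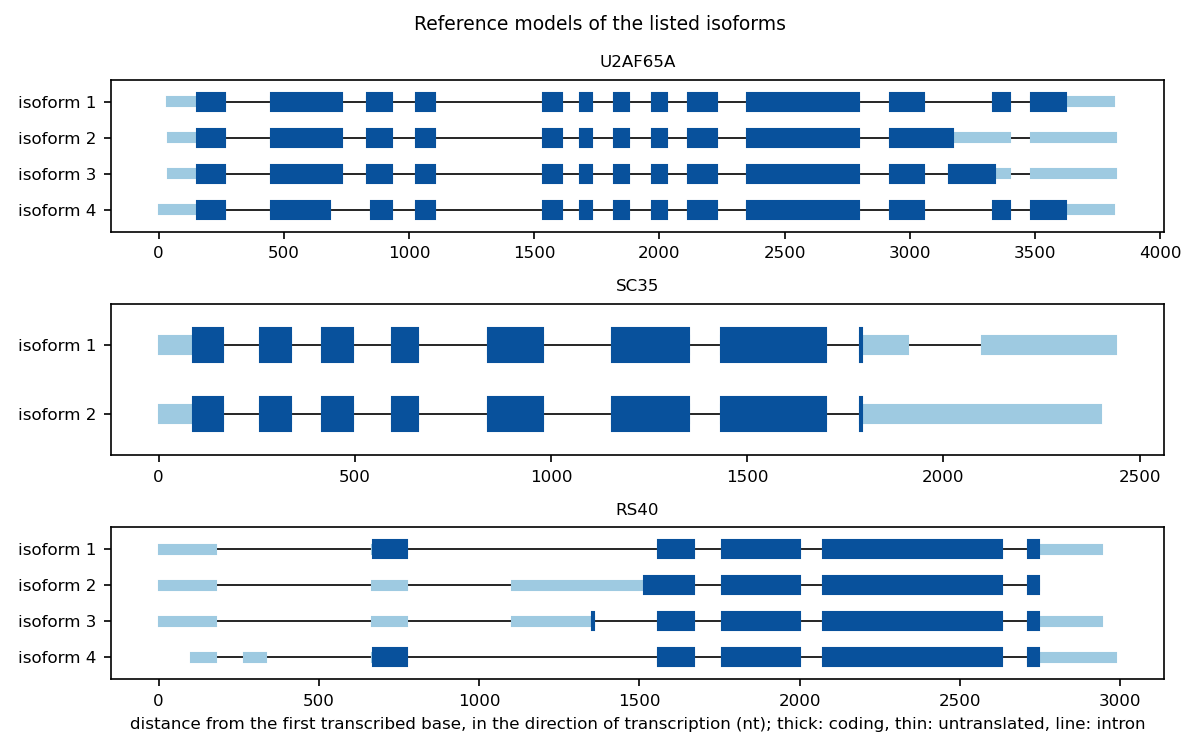
Reference models (TAIR10.1) of the listed isoforms of U2AF65A, SC35 and RS40, drawn to scale as distance in nt from the first transcribed base, with coding exons thick, untranslated exons thin and introns as lines. In U2AF65A, isoforms 1 and 3 differ in an acceptor near the end of the coding sequence; in SC35, isoform 2 keeps an intron after the stop codon; in RS40, isoforms 2 and 3 hold extra exon sequence in the second intron of isoform 1.

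**Figure D4:**
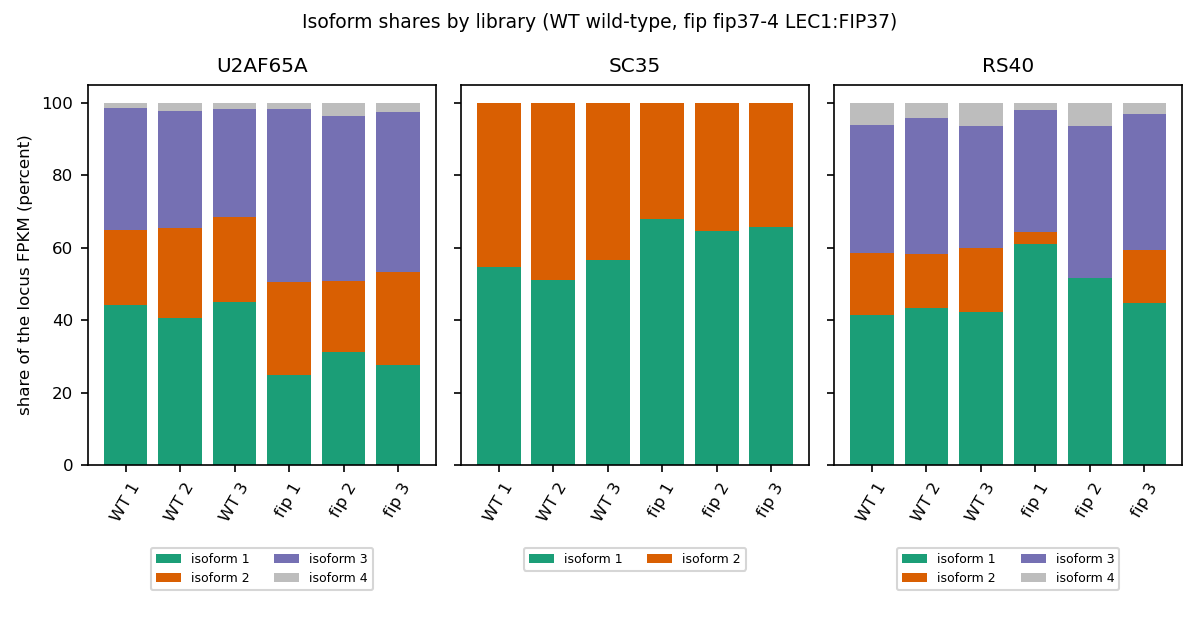
Share of the locus FPKM (percent, vertical axis) taken by each listed isoform in each of the 6 libraries, for U2AF65A, SC35 and RS40. Isoform 1 of U2AF65A spans 40.7 to 45.05% in wild-type and 25.02 to 31.2% in fip37-4 LEC1:FIP37, and isoform 2 of SC35 spans 43.2 to 48.9% and 31.96 to 35.2%.

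U1-70K (AT3G50670), the U1 protein through which SR proteins reach the donor, was at 18.1, 17.8 and 18.9 FPKM in wild-type and at 22.4, 19.9 and 17.7 in fip37-4 LEC1:FIP37. Of the mutant libraries, 2 were above the wild-type range and the other was the lowest of all 6, and the locus was not called (log2 0.12, limma adjusted p = 0.229). It was called higher without fip37-4 LEC1:FIP37 replicate 3 (log2 0.21, adjusted p = 0.0326) and after quantile normalization (log2 0.27, adjusted p = 0.0254). Isoform 2, which keeps an intron of 909 nt and encodes 204 residues against the 427 of isoform 1, was at 6.34, 6.21 and 5.70 FPKM against 8.41, 6.71 and 7.86. As a transcript of its own it rose (log2 0.31, SE 0.09, limma adjusted p = 0.0288), but its share, 30.2 to 34.98% in wild-type and 33.7 to 44.6% in the mutant, overlapped between groups (limma adjusted p = 0.639).

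Among the 18 SR proteins, 12 fell, 1 rose and 5 were not called, and the median log2 fold change was -0.25. Over all tested loci, 30.9% fell and 27.6% rose. The falls of SR34, RS41, RS2Z32 and SCL30A were not called after the rescaling without organelle genomes. The SR subfamily, relatives of human SRSF1, holds SR30 (AT1G09140), SR34 (AT1G02840), SR34A (AT3G49430) and SR34B (AT4G02430). SR30 fell from 30.0, 32.1 and 30.3 FPKM to 22.9, 25.6 and 25.7 (log2 -0.31, SE 0.058, limma adjusted p = 0.00189). SR34A fell from 15.4, 14.4 and 16.8 FPKM to 11.8, 13.1 and 11.8 (log2 -0.33, SE 0.069, limma adjusted p = 0.00333). In both, every mutant library was below every wild-type library. SR34 was at 39.4, 36.0 and 39.4 FPKM in wild-type and 33.5, 36.0 and 32.5 in the mutant, where the nearest libraries were equal to 3 digits (log2 -0.17, SE 0.057, limma adjusted p = 0.0322). Its sign turned after quantile normalization (log2 0.03, adjusted p = 0.682), and leaving out wild-type replicate 1, wild-type replicate 3 or the mutant replicate 3 ended the call (adjusted p = 0.113, 0.106 and 0.106). In all, SR34 lost its call in 8 of the 15 alternatives, among them the rescaling without organelle genomes (log2 -0.07, adjusted p = 0.473), plain empirical Bayes (0.0606), the removal of the length trend (0.0534) and the replicate block (0.0703). SR34B, the least abundant of these, was at 3.99, 3.52 and 3.86 FPKM against 4.05, 4.16 and 4.21, which did not overlap but was not called (log2 0.11, limma adjusted p = 0.183).

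In the plant-specific RS subfamily the closest relatives differed in direction. RS31 (AT3G61860) fell from 16.9, 16.8 and 16.8 FPKM to 11.5, 12.2 and 12.6 (log2 -0.46, SE 0.049, limma adjusted p = 8.64e-05). RS31A (AT2G46610) rose from 4.69, 4.68 and 4.60 FPKM to 5.81, 5.33 and 6.09 (log2 0.27, SE 0.065, limma adjusted p = 0.00676). For both genes the wild-type libraries lay close together and the mutant libraries stood well apart from them, and both calls held under each of the 15 alternatives run. A gene on the opposite strand, AT2G46600, overlaps RS31A over 35 nt in the reference and stood at means of 37.9 and 50.3 FPKM. Another on that strand, AT2G09740, overlaps RS31A over 491 nt and has no values in the data. The part of either gene in the rise of RS31A was not tested. RS41 (AT5G52040) fell from 32.9, 32.9 and 32.3 FPKM to 29.9, 28.1 and 27.9 (log2 -0.19, SE 0.045, limma adjusted p = 0.00713), a call that was lost after quantile normalization (log2 -0.02) and the rescaling without organelle genomes (log2 -0.09). RS40 (AT4G25500) was at 18.3, 17.9 and 16.6 FPKM against 18.7, 16.9 and 18.1, with overlap (log2 0.02, limma adjusted p = 0.786). The 2 models of RS31A share the acceptor and differ in the donor of an intron in the coding sequence, and encode 250 and 224 residues; isoform 1 took 47.8 to 59.5% in wild-type and 52.3 to 58.2% in the mutant.

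While the level of RS40 was not called, the shares of its listed isoforms varied between libraries. Isoform 1, which encodes 350 residues, took 41.6, 43.4 and 42.4% in wild-type and 61.1, 51.6 and 44.9% in fip37-4 LEC1:FIP37 (limma adjusted p of the ratio = 0.413). The model of isoform 2 keeps extra exon sequence in the long intron of the locus. Its annotated coding sequence of 329 residues starts inside this extra sequence. The exon with the start codon of isoform 1 is present in it but marked untranslated. Isoform 2 was at 3.14, 2.67 and 2.91 FPKM in wild-type and at 0.612, 0.000794 and 2.61 in the mutant. The groups did not overlap, but the mutant libraries ranged from near the wild-type level down to less than the value of 1 fragment. The ratio of isoform 2 to the rest differed by -1.68 (SE 0.62, limma adjusted p = 0.266), its range without each library in turn was -2.43 to -1.05, and diffSplice gave an adjusted p of 0.0506. Isoform 3, with the shorter form of the extra exon, took 33.7 to 37.6% and 33.8 to 42.0%.

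The RSZ proteins carry 1 zinc knuckle beside the RNA recognition motif. RSZ21 (AT1G23860) fell the most of all members, from 9.02, 10.1 and 11.1 FPKM to 5.85, 6.51 and 6.77 (log2 -0.62, SE 0.084, limma adjusted p = 0.000334). RSZ22 (AT4G31580) fell from 23.9, 24.6 and 26.3 FPKM to 17.6, 21.8 and 20.2 (log2 -0.32, SE 0.079, limma adjusted p = 0.00742). RSZ22A (AT2G24590) was at 17.1, 17.0 and 15.7 FPKM against 14.9, 18.5 and 17.5 and was not called (log2 0.03, limma adjusted p = 0.788). The mutant libraries lay below wild-type for RSZ21 and RSZ22 and on both sides of it for RSZ22A. RSZ22 lost its call after quantile normalization (log2 -0.16, adjusted p = 0.0938), and RSZ22A was called higher once the length trend was removed (log2 0.23, adjusted p = 0.0352).

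The RS2Z proteins, found in plants, carry a pair of zinc knuckles. RS2Z33 (AT2G37340) fell from 37.0, 35.9 and 40.4 FPKM to 29.4, 29.3 and 28.4 (log2 -0.37, SE 0.054, limma adjusted p = 0.000469). RS2Z32 (AT3G53500) fell from 28.9, 30.0 and 33.7 FPKM to 24.9, 27.9 and 24.9 (log2 -0.25, SE 0.07, limma adjusted p = 0.0153). Both sets of mutant libraries lay below wild-type; the call of RS2Z32 was lost under both rescalings and without wild-type replicate 3 (log2 -0.18, adjusted p = 0.0537) or fip37-4 LEC1:FIP37 replicate 3 (log2 -0.22, adjusted p = 0.0512). In each gene, a listed isoform takes an earlier acceptor of one long intron and has a shorter coding sequence. For RS2Z32 this was isoform 1 (243 residues against 284), at 15.4 to 17.9% in wild-type and 16.7 to 23.9% in the mutant, and for RS2Z33 isoform 3 (249 residues against 290), at 5.7 to 7.6% and 7.2 to 9.5%, both with overlap. All shorter-coding isoforms of RS2Z33 together took 10.9% of the locus in the wild-type mean and 13.4% in the mutant mean, with no overlap, and the ratio of its isoform 1 was not called (limma adjusted p = 0.515).

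SC35 (AT5G64200), the relative of human SRSF2, fell from 13.2, 14.4 and 13.9 FPKM to 10.5, 11.7 and 11.0 (log2 -0.31, SE 0.057, limma adjusted p = 0.00187), with no overlap. Of its 2 listed isoforms, only isoform 2 was called lower on its own. Both encode the same 303 residues, and isoform 2 keeps an intron of 190 nt in the 3′ untranslated region (chr5:25681543-25681732, minus strand, TAIR10.1). Isoform 2 fell from 5.97, 7.05 and 6.01 FPKM to 3.37, 4.11 and 3.76 (log2 -0.69, SE 0.096, limma adjusted p = 0.00123), whereas isoform 1 was at 7.20, 7.36 and 7.91 FPKM against 7.17, 7.58 and 7.25 (log2 -0.03, SE 0.058, limma adjusted p = 0.714). The share of isoform 1 was 54.2% ± 2.9 (SD, n = 3) in wild-type and 66.2% ± 1.6 (SD, n = 3) in fip37-4 LEC1:FIP37, with separate groups. The log2 ratio differed by 0.66 (SE 0.21), which did not pass the adjustment over all isoforms (limma adjusted p = 0.215), while diffSplice called it (adjusted p = 0.0396).

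The SC35-like proteins of plants have an extension before the RNA recognition motif. SCL30 (AT3G55460) fell from 26.1, 25.3 and 27.8 FPKM to 20.2, 20.4 and 20.4 (log2 -0.36, SE 0.048, limma adjusted p = 0.000295). SCL30A (AT3G13570) fell from 10.3, 10.9 and 11.6 FPKM to 9.17, 8.73 and 9.43 (log2 -0.25, SE 0.06, limma adjusted p = 0.00728). In both the groups were separate, and SCL30A lost its call under the rescaling without organelle genomes (log2 -0.15, adjusted p = 0.179) and without the length trend (log2 -0.11, adjusted p = 0.136). SCL33 (AT1G55310) was at 15.4, 16.6 and 15.3 FPKM against 15.3, 13.4 and 14.6 and was not called (log2 -0.13, limma adjusted p = 0.108); it was called lower without fip37-4 LEC1:FIP37 replicate 1 (log2 -0.17, adjusted p = 0.0339) and without the length trend (log2 -0.17, adjusted p = 0.0403). SCL28 (AT5G18810), the least abundant member, was at 0.595, 0.712 and 0.814 FPKM against 0.708, 0.667 and 0.788, and a difference was not detectable at this depth (log2 0.02, limma adjusted p = 0.893).

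SR45 (AT1G16610), an SR-related protein with an arginine- and serine-rich domain on each side of its RNA recognition motif, fell from 11.7, 11.4 and 12.1 FPKM to 9.88, 9.31 and 8.77 (log2 -0.31, SE 0.057, limma adjusted p = 0.0017). The groups were separate, and the call was lost after the rescaling without organelle genomes (log2 -0.22, adjusted p = 0.0772). SR45A (AT1G07350), a relative known for its response to stress, was at 17.7, 18.1 and 19.8 FPKM against 16.6, 18.9 and 18.7, with overlap (log2 -0.03, limma adjusted p = 0.689). Its isoform 2, which encodes 129 residues against 382, took 35.2 to 37.6% in wild-type and 28.0 to 35.2% in the mutant.

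GRP7 (AT2G21660) and GRP8 (AT4G39260), glycine-rich RNA-binding proteins of the circadian system that act on the splicing of each other's transcripts, both fell. GRP7, by far the most abundant member, was at 215, 219 and 239 FPKM in wild-type and at 136, 162 and 146 in fip37-4 LEC1:FIP37 (log2 -0.60, SE 0.072, limma adjusted p = 0.000172). GRP8 was at 20.4, 19.9 and 20.01 FPKM against 13.97, 13.2 and 13.2 (log2 -0.56, SE 0.045, limma adjusted p = 2.03e-05). Every mutant library was below every wild-type library for both genes, and both calls held under each of the 15 alternatives run. The ratio of GRP7 to GRP8 was 11.2 ± 0.730 (SD, n = 3) in wild-type and 11.0 ± 1.25 (SD, n = 3) in the mutant (exact permutation test, two-sided p = 1). The main isoform of GRP7 kept 95.7 to 96.3% of the locus in wild-type and 96.2 to 96.9% in the mutant. For GRP8, isoform 1 took 76.3 to 78.2% in wild-type but 54.1, 81.7 and 71.5% in the mutant libraries, and isoform 2, with an intron removed from the coding sequence and 126 residues against 169, took 11.0 to 17.6% and 34.7, 13.9 and 18.3%. The GRP8 difference therefore rested on fip37-4 LEC1:FIP37 replicate 1, with overlap between the groups and no call (limma adjusted p = 0.625 and 0.483).

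Polypyrimidine tract-binding proteins bind pyrimidine-rich stretches and can block or favour nearby exons. PTB1 (AT3G01150) was at 9.07, 8.21 and 8.54 FPKM against 6.87, 7.81 and 7.85 (log2 -0.19, SE 0.068, limma adjusted p = 0.0424). PTB3 (AT1G43190) was at 17.5, 17.7 and 18.7 FPKM against 16.1, 16.2 and 16.9 (log2 -0.13, SE 0.048, limma adjusted p = 0.0453). Both were called lower with separate groups, but just past the threshold: PTB1 lost its call in 10 and PTB3 in 11 of the 15 alternatives, and PTB3 stood at a log2 fold change of 0.00 after quantile normalization (adjusted p = 0.944). PTB1 was not called when any wild-type library or the mutant replicate 1 was left out (adjusted p = 0.052 to 0.143), nor PTB3 when any wild-type library or the mutant replicates 1 or 2 were left out in turn (adjusted p = 0.0675 to 0.148). PTB2 (AT5G53180) was at 13.1, 12.2 and 13.2 FPKM against 12.3, 13.3 and 13.7, with overlap (log2 0.03, limma adjusted p = 0.708). Isoform 2 of PTB2, which has an additional exon and encodes 329 residues against 429, took 13.1, 11.6 and 14.1% in wild-type and 9.0, 11.2 and 11.6% in the mutant, nearly touching, and its ratio was not called (limma adjusted p = 0.639).

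The nuclear cap-binding complex, which holds the cap of new transcripts and aids the splicing of their first intron, fell in both subunits. CBP20 (AT5G44200), which grips the cap, was at 13.96, 13.7 and 14.4 FPKM against 12.8, 10.9 and 11.2 (log2 -0.26, SE 0.064, limma adjusted p = 0.0077). CBP80 (AT2G13540), its scaffold, was at 10.3, 10.4 and 10.3 FPKM against 8.09, 9.62 and 8.88 (log2 -0.21, SE 0.066, limma adjusted p = 0.022). The groups were separate for both. CBP20 lost its call under both rescalings and without the length trend (adjusted p = 0.0804, 0.215 and 0.0888), and CBP80 under both rescalings (adjusted p = 0.0789 and 0.217) and without any 1 of the wild-type libraries (adjusted p = 0.0556 to 0.0629).

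**Figure D5:**
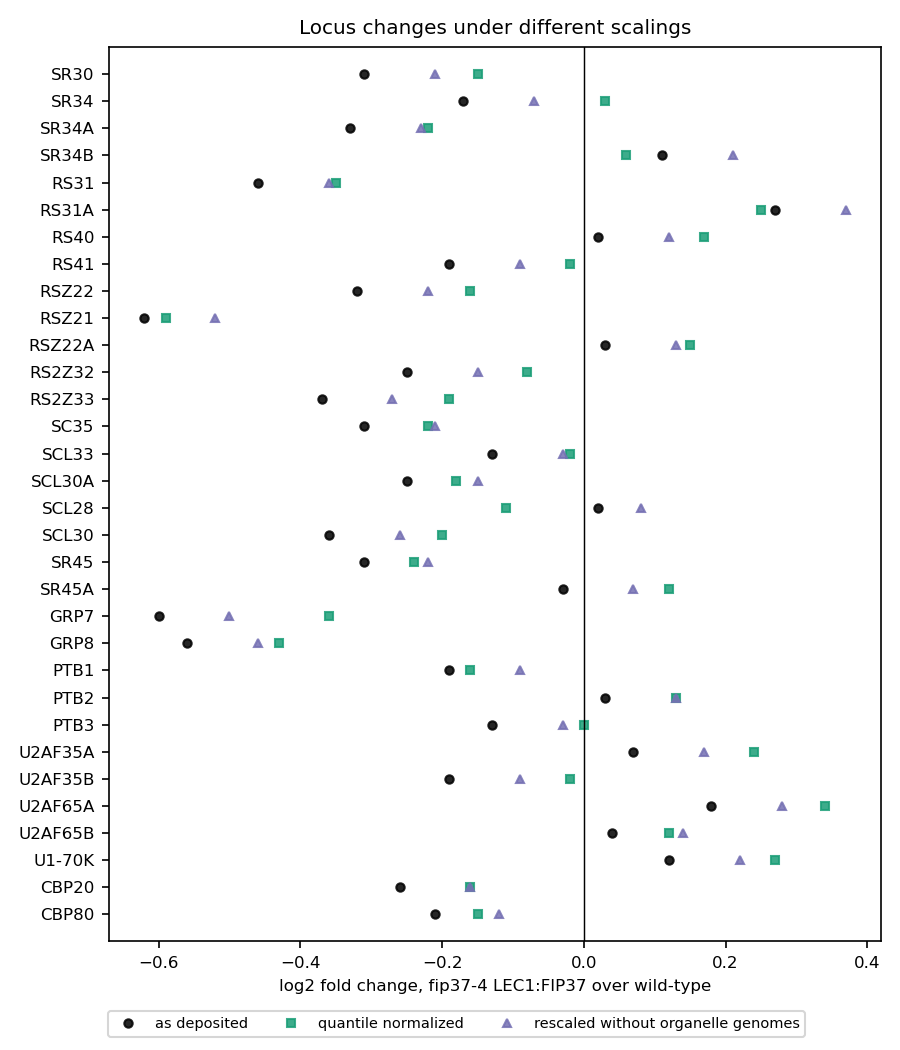
Log2 fold change of the 32 splicing factor loci, fip37-4 LEC1:FIP37 over wild-type (horizontal axis), with values as deposited, after quantile normalization, and after each library was rescaled without the organelle genomes. Without the organelle genomes all members move to higher values by about the same amount; of the called loci SR34 crosses 0 and PTB3 reaches it under quantile normalization, while RSZ21, GRP7, GRP8 and RS31 stay among the lowest and RS31A and U2AF65A stay above 0 in all 3.

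Relative levels within pairs of close relatives do not depend on a scaling factor of the library. In 8 of 10 pairs the ratio of the paralogues did not overlap between groups, and each of these reached the smallest p that 3 against 3 libraries allow (exact permutation test, two-sided p = 0.1, 0.125 after adjustment over the pairs), so that none could pass 0.05. Groups of single loci did not overlap for 65.9% of all loci, and no such share was computed over other gene pairs. RS31 over RS31A went from 3.61, 3.59 and 3.64 to 1.97, 2.29 and 2.07, the largest shift. U2AF35A over U2AF35B went from 1.19, 1.24 and 1.31 to 1.38, 1.52 and 1.60, and SR34 over SR34B from 9.89, 10.2 and 10.2 to 8.28, 8.64 and 7.72. RSZ22 over RSZ22A fell from a mean of 1.51 to 1.17, PTB1 over PTB2 from 0.670 to 0.573 and RS2Z33 over RS2Z32 from 1.23 to 1.12, while RS40 over RS41 was at 0.540 and 0.624 and SCL33 over SCL30A at 1.45 and 1.58. Some of these groups were barely separate. The nearest libraries of SCL33 over SCL30A were both at 1.53, and those of RS2Z33 over RS2Z32 were at 1.20 in wild-type and 1.18 in the mutant. U2AF65A over U2AF65B overlapped between the groups, at means of 2.27 and 2.50. How the quantification divided reads of similar stretches between relatives is not stated in the sources used here.

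Across the members' isoforms, shares differed between the groups about as often as those of other genes. Of the 73 listed isoforms, 66 belonged to the 25 loci with more than 1, and 49 in 20 loci passed the filter on low values. None of the 49 was called in limma's test of the ratio, 5 (10.2%) were at an unadjusted p under 0.05, and diffSplice called 4 (8.16%), which are isoforms 1 and 3 of U2AF65A and both of SC35. Shares within a locus depend on each other, and those of SC35 mirror each other (log2 ratio differences 0.66 and -0.66). These isoforms are therefore not separate results. Over all genes the ratio test called 0.0306% of 6542 isoforms, 15.2% were at an unadjusted p under 0.05, and diffSplice called 6.46% of 6469. The share groups did not overlap for 10 member isoforms (20.4%), against 19.7% of all isoforms, and a difference of at least 5 percentage points without overlap was seen for 6 (12.2%), against 12.6%. Those 6 were isoforms 1 and 3 of U2AF65A, both of SC35 and isoforms 1 and 2 of RS40, described above. Another 5 differed by at least 5 points with overlap, in GRP8, U1-70K and RS41, and the other 38 differed by between -4.0 and 4.0 points (limma adjusted p from 0.484 to 0.985).

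Isoforms with a shorter coding sequence than the longest of the locus had overlapping shares in most members. Any shorter length counts, among them isoform 1 of RS41 (356 residues against 357) and isoform 3 of U2AF65A (565 against 573). Early stop codons were not singled out. Isoforms of shorter coding sequence were listed for 21 members. Their summed share was higher in fip37-4 LEC1:FIP37 with no overlap in 2 (U2AF65A, from 56.7 to 72.0% in the mean, and RS2Z33), lower with no overlap in 1 (PTB2) and overlapped in 18. These are 9.52% higher and 4.76% lower, against 8.44% and 6.26% of 3899 loci with such isoforms. SR30 and SR34, whose variants differ by the acceptor of one long intron, were among the latter. For SR30, isoform 2 took 26.1, 28.2 and 26.9% in wild-type and 27.1, 25.9 and 30.5% in the mutant, and for SR34, isoform 1 took 65.6, 64.1 and 68.8% against 66.8, 73.9 and 69.7%. SR34B, with 178 to 248 fragments at the locus, varied more between libraries than between groups, with isoform 1 at 74.6, 86.9 and 72.4% against 65.7, 82.0 and 90.3%.

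Other parts of the splicing apparatus moved in both directions, in lists of 54 genes kept because the reference gives the same symbol for their locus. Of these, 27 fell, 12 rose and 15 were not called. The shares over all tested loci, 30.9% lower and 27.6% higher, stand beside each list count below. Another 26 genes written into the lists were left out because their symbol did not match, and with them 41 of 80 fell and 17 rose, among them 7 and 3 of 16 for the U1 and U2 particles and 2 and 3 of 6 for nonsense-mediated decay. Of the Sm and LSM proteins, which form rings on the small nuclear RNAs, 14 of 15 fell and none rose, with a median log2 fold change of -0.73; examples are LSM6A, at a mean of 20.3 and 8.22 FPKM (log2 -1.25, limma adjusted p = 1.34e-05), SAD1 (log2 -1.16) and LSM8 (log2 -0.94). These are short transcripts, with a median length of 775 nt against 1739 over all loci, and with the length trend removed 10 fell and the median was -0.51. Of the proteins of the U4/U6.U5 particle, 4 of 6 rose and none fell; PRP8, the protein at the catalytic centre, went from 29.7, 29.4 and 29.6 FPKM to 42.0, 42.5 and 41.2 (log2 0.50, limma adjusted p = 2.08e-05), STA1 rose by 0.56 and RDM16 by 0.49. This list has a median length of 3619 nt, and without the length trend 3 rose, 1 fell and the median went from 0.41 to 0.18. The members' own median length was 1626 nt.

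Among 8 proteins of the U1 and U2 particles, 3 fell, with U1A at log2 -0.55 and U2B'' at -0.53, and 2 rose, with PRP40A at 0.34; neither of those that rose was called after quantile normalization or without the length trend. In the plant relative of the yeast Prp19 complex, which activates the assembled spliceosome, 2 of 6 fell (MAC3B at -0.56 and MAC3A at -0.30) and 2 rose (CDC5 at 0.34 and SKIP at 0.12); MAC3A was not called after the rescaling without organelle genomes (limma adjusted p = 0.058), nor SKIP without the length trend (0.209). Of 4 kinases of SR proteins, AFC2 rose (log2 0.22, limma adjusted p = 0.00437), AME3 fell (log2 -0.22, limma adjusted p = 0.00953) and 2 were not called. The call of AME3 was lost after the rescaling without organelle genomes (log2 -0.12, limma adjusted p = 0.214). Of 10 other RNA-binding regulators, 5 fell, led by RBP47A (log2 -0.66), RBP47B and RBP47C (both -0.46), and 1 rose. Of 5 factors of nonsense-mediated decay, which removes transcripts with early stop codons, the exon junction proteins MAGO (log2 -0.81) and Y14 (log2 -0.70) fell, while UPF1 (log2 0.17) and UPF3 (log2 0.13) rose, and neither of the latter was called without the length trend.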

How the data were processed

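Libraries were strand-specific and made from total RNA depleted of ribosomal RNA, per the labels' protocols. The authors deposited FPKM per transcript, produced by TopHat2 2.0.9 followed by Cufflinks 2.1.1 with TAIR10 as build, per the submitters' processing notes; the files name no unit, and FPKM was taken from those tools. The use of strand in the quantification is not stated in the sources used here. In the reference, 9 members overlap a gene on the opposite strand, and those values are uncertain. They are RS31A, RS40, RS41, RS2Z32, RS2Z33, SC35, PTB1, U2AF35A and U2AF35B. Genes without values overlap RS2Z33 over 852 nt, RS41 over 656 nt and U2AF35B over 884 nt, besides the one at RS31A. Each file lists 36104 transcripts, which were summed per locus to 28141 features. Symbols, models and splice sites came from RefSeq (TAIR10.1), where 97.9% of the listed annotated isoforms have a model of the same code.

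Loci with at least 0.5 FPKM in 3 of the 6 libraries were kept (19383), and log2(FPKM + 0.5), which understates changes of low genes, was tested with limma 3.58.1 in R 4.3.3 (trend, robust empirical Bayes, Benjamini-Hochberg, call at 0.05). Isoforms were tested as log2 of the isoform over the rest of its locus, each plus 0.5, where both averaged at least 0.5 FPKM. Paralogue ratios were compared by exact permutation (Python 3.11.15, SciPy 1.17.1). The fits were also run on simulated data in which 200 features were changed. In the data 11357 loci were called, so that setting differs from these data and no conclusion is drawn from it. Alternatives were other pseudocounts, filters and scalings, plain empirical Bayes, a length trend removed, each transcript on its own, diffSplice, a replicate block and each library left out. The members, gene lists and pairs were chosen with earlier results of these data known. Named are all members, FIP37, markers, up to 3 called genes with the largest change per list, and SKIP and UPF3, which were added after their values were seen. Full accounts were planned only for isoforms with a called share. Those of U2AF65A, SC35 and RS40 are given although the ratio test called none of them.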

Additional observations from a re-analysis of the deposited data

How the results depend on the processing

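Of the 22 called members, 11 kept their call and direction in all 15 alternatives at locus level (SR30, SR34A, RS31, RS31A, RSZ21, RS2Z33, SC35, SCL30, GRP7, GRP8 and U2AF65A), 11 lost the call in at least 1, and 4 others gained one in at least 1. The sign turned for SR34 (log2 0.03) and PTB3 (log2 0.00) after quantile normalization. The 20 members that fell became 11 after quantile normalization and 10 after rescaling without the organelle genomes, which moved the median of all loci from -0.002 to 0.090; the 2 that rose became 4 after quantile normalization and 4 without the length trend, where the 12 risen genes of the splicing lists became 6. Without each library in turn, 15 to 19 members fell and 2 to 3 rose. The isoform ratio test over all genes called 2 isoforms, but 4 at a pseudocount of 0.1 FPKM, 61 at 1 FPKM, 51 with no filter, 24 at a filter of 1 FPKM, 418 with diffSplice and 0 to 4 without each library; of the members' isoforms it called 0 under each of these except diffSplice, which called 4. Among the low isoforms, shares of a few fragments limit what can be seen. The cause of these changes was not tested.

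The replicate numbers in the titles did not pair the libraries: the correlations of same-numbered deviations were -0.028, -0.049 and -0.057. With the replicate number as a block, 17 members fell and 2 rose, over all loci 5804 fell and 5075 rose, and no isoform was called (0 of all and 0 of the members').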
